A study of Mus musculus with 9 samples.

Results

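Transcripts of 9 enzymes of serine synthesis and folate-bound one-carbon metabolism were followed across mouse R1 embryonic stem cells carrying 1 of 3 short hairpin RNAs. The enzymes were chosen by symbol (Phgdh, Psat1, Psph, Shmt1, Shmt2, Mthfd1, Mthfd1l, Mthfd2 and Aldh1l2), and all 9 were found among the 22322 genes listed. All 9 also passed the filter on low counts that left 13158 genes for testing. Control cells (sh-ctrl, genotype WT) carried a control hairpin, and the other groups carried a hairpin against Pfkp (sh-Pfkp) or against Lin41 (sh-Lin41), the protein of the gene Trim71. Every group had 3 libraries, made from embryoid bodies, which are aggregates formed in suspension after LIF was withdrawn for 6 days. The stem cell medium used before that contained serum, non-essential amino acids and pyruvate, per the labels. A single hairpin per gene is named and no rescue, so an effect of that hairpin or of its cell line cannot be told apart from the knockdown.

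Serine is made from the glycolytic intermediate 3-phosphoglycerate by the dehydrogenase PHGDH, the aminotransferase PSAT1 and the phosphatase PSPH, in that order. The hydroxymethyltransferases SHMT1, in the cytosol, and SHMT2, in mitochondria, split serine into glycine and a one-carbon unit carried by tetrahydrofolate. MTHFD2 and MTHFD1L oxidise that unit in mitochondria and release it as formate, MTHFD1 takes formate back onto folate in the cytosol, and ALDH1L2 oxidises mitochondrial formyl-folate and yields NADPH. Proliferating stem cells use these units for purines, thymidylate and methyl groups, and the stress-response transcription factor ATF4 is known to activate several of these genes. Pfkp encodes a phosphofructokinase, which acts upstream of 3-phosphoglycerate in glycolysis.

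The sequences before the annotated start sites of 4 enzymes are shown, since 3 of them belong to the serine branch that was lower in the Pfkp knockdown and the last, Shmt1, moved the other way. RefSeq promoters were matched by symbol for 8 of the 9 enzymes. The 250 bases before the start site are given in the direction of the gene, on build GRCm38.p6, which may not be the build used for counting. All 4 lie on the minus strand: Phgdh at chr3:98339970-98340219, Psat1 (the start site listed first) at chr19:15925060-15925309, Psph at chr5:129787254-129787503 and Shmt1 at chr11:60811266-60811515. Capitals mark CCAAT, the letters of the CCAAT box bound by NF-Y, or ATTGG, the same letters on the other strand.
Phgdh: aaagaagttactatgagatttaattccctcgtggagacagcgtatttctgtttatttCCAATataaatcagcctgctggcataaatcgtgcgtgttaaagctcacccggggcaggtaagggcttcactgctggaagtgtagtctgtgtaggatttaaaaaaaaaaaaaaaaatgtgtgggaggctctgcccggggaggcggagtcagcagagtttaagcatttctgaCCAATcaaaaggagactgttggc
Psat1: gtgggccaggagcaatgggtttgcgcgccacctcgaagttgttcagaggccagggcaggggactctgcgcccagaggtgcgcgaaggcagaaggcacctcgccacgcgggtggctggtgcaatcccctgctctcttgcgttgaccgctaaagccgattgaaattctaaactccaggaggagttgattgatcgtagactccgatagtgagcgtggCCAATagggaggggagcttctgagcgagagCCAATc
Psph: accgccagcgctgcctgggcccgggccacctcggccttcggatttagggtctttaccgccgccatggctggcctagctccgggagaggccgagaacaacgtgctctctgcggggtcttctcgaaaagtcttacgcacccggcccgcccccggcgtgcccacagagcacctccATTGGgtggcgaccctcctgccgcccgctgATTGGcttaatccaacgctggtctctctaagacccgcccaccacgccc
Shmt1: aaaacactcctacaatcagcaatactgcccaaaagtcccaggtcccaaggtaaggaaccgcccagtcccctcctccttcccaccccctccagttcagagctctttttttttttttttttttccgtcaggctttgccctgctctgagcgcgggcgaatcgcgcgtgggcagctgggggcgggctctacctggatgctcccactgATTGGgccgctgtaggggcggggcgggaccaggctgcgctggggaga
Phgdh, Psph and the Psat1 window shown each held 2 such matches, Shmt1 and Mthfd1 held 1 and Mthfd2 held 3, whereas the windows of Shmt2, Mthfd1l and the other Psat1 start site held none. Of all 32851 RefSeq windows of this length 33.8% held at least 1. The ATF4 composite element, searched as TGATGNAA on both strands, was in none of the 9 windows of these genes (Psat1 has 2 start sites) and in 3.45% of all windows. The E-box CACGTG was likewise in none of the 9 windows and in 6.02% of all windows. The CCAAT letters stood both before genes that were lower in the Pfkp knockdown and before Shmt1, which was higher. Whether any of these motifs bears on the level of these genes was not tested, and only these windows were searched.

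Total counts lay between 15495194 and 20607683 per library. Pfkp had 245 to 248.3 CPM (counts scaled to library size by the TMM method) in sh-ctrl and 101.2 to 104.9 CPM in sh-Pfkp. Trim71 had 263.7 to 273 CPM in sh-ctrl and 155.9 to 165.1 CPM in sh-Lin41. Each target also moved in the other knockdown, Trim71 rising to 347.2 to 359.9 CPM in sh-Pfkp (log2 0.39, edgeR adjusted p = 4.06e-15) and Pfkp falling to 221.8 to 232.6 CPM in sh-Lin41 (log2 -0.12, edgeR adjusted p = 8.68e-05). All 10 defining markers of embryonic stem cells that were checked exceeded 1 CPM in every group, with a summed level of 5184 to 5268 CPM in sh-ctrl, 4733 to 4806 CPM in sh-Pfkp and 6033 to 6066 CPM in sh-Lin41. Over all genes tested 28.3% fell and 28.3% rose in sh-Pfkp against sh-ctrl, and 27.3% fell and 26.9% rose in sh-Lin41 (edgeR adjusted p below 0.05), as shares to set beside the marker counts. Of the 10 stem cell markers 4 rose and 6 fell in sh-Pfkp, and 6 rose and 2 fell in sh-Lin41. Of 8 mesoderm markers 7 were under 1 CPM in sh-ctrl, and of the 4 tested 3 fell and 1 rose in sh-Pfkp and 2 fell in sh-Lin41. Of 7 neuroectoderm markers tested 4 rose and 2 fell in sh-Pfkp, and 1 rose and 2 fell in sh-Lin41. The 8 extraembryonic endoderm markers summed to 5.84 to 8.7 CPM in sh-ctrl, 7.68 to 8.63 CPM in sh-Pfkp and 8.53 to 8.83 CPM in sh-Lin41. Of 10 fibroblast markers, 3 (Dcn, Lum and Postn) were at 0 counts in sh-ctrl and sh-Lin41 and none was at 0 in sh-Pfkp, where 7 of the 8 tested rose. Over these 8 the median log2 fold change of sh-Pfkp was 4.54 against sh-ctrl and 3.45 against sh-Lin41. Most started from low levels, with 7 of the 10 under 1 CPM in sh-ctrl and 3 in sh-Pfkp. Such genes could pass the filter on low counts through their sh-Pfkp level alone. The count of 7 of 8 and both medians therefore describe the genes that passed and do not test a rise of the list. In sh-Lin41 2 of the 8 rose against sh-ctrl. The summed level of that list, most of it Fn1, was 908 to 927 CPM in sh-ctrl, 1034 to 1080 CPM in sh-Pfkp and 909 to 926 CPM in sh-Lin41. Mitochondrially encoded transcripts, checked as a sign of RNA quality, summed to 50796 to 52733 CPM in sh-ctrl, 67855 to 70279 CPM in sh-Pfkp and 71098 to 73822 CPM in sh-Lin41, and 12 and 13 of 13 rose in the respective knockdowns. The part of these markers in the results below was not tested, and fewer cells of a type and less RNA per cell cannot be told apart in bulk libraries.

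By length-corrected level (FPKM, fragments per kilobase of transcript, scaled to library size) the cytosolic enzyme Mthfd1 led in control cells and the mitochondrial Aldh1l2 came last. In sh-ctrl the means were 127.8 ± 3.39 FPKM for Mthfd1, 119.3 ± 1.3 for Psat1, 105.9 ± 1.49 for Shmt2, 78.7 ± 1.62 for Phgdh and 59.4 ± 0.861 for Shmt1 (SD, n = 3). Mthfd1l had 32.2 ± 0.42 FPKM, Mthfd2 25.6 ± 0.546, Psph 17.9 ± 0.512 and Aldh1l2 0.633 ± 0.145 (SD, n = 3). No neighbours in this order overlapped in their 3 library values. The order differed between the groups. Phgdh, ahead of Shmt1 in control cells, came below Shmt1 in both knockdowns, at 45.7 ± 1.28 against 63.9 ± 1.33 FPKM in sh-Pfkp and at 56.4 ± 2.02 against 60.3 ± 0.775 FPKM in sh-Lin41. In sh-Lin41 Psat1 led with 121.9 ± 2.07 FPKM over Mthfd1 with 110.1 ± 2.13. The neighbours Shmt2 and Psat1 overlapped in sh-Pfkp, and so did Mthfd2 and Mthfd1l in sh-Lin41.

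**Figure D1:**
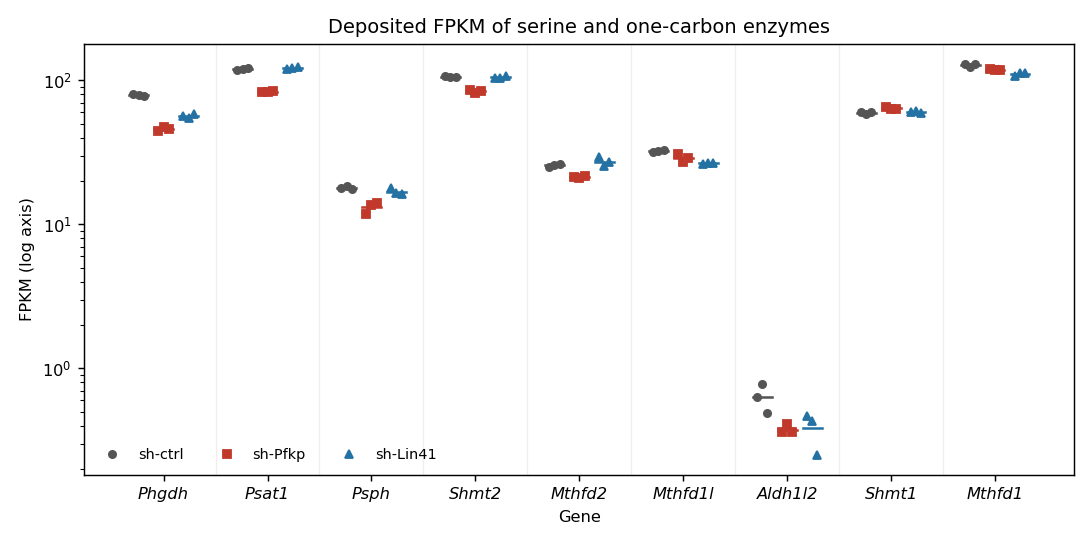
Deposited FPKM of the 9 enzymes on a log axis, 1 point per library and a bar at the mean of the 3 libraries of each hairpin. Mthfd1, Psat1 and Shmt2 lie near 100 FPKM, and Aldh1l2 lies under 1 FPKM in every library.

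In the Pfkp knockdown the serine branch was lower at all 3 steps, the 4 mitochondrial enzymes were lower as well, and cytosolic Shmt1 was higher. Of the 9 enzymes 7 fell, 1 rose and Mthfd1 was not called (edgeR adjusted p below 0.05 over all genes tested). Among all genes tested 56.6% were called, 28.3% lower and 28.3% higher. The median log2 fold change was -0.29 over the 9 enzymes and -0.005 over all genes tested. The 9 enzymes were picked with earlier results of these data known, and these counts describe them without testing them as a group.

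Phgdh, the entry step of serine synthesis, stood at 150.4, 147.8 and 144 CPM with the control hairpin, at 86.1, 91.3 and 88 with the Pfkp hairpin and at 105.5, 102.3 and 109.3 with the Lin41 hairpin. The 3 groups did not overlap, with sh-Pfkp lowest and sh-Lin41 between. In the Pfkp knockdown Phgdh fell by 0.74 on the log2 scale (SE 0.0329, edgeR adjusted p = 1.4e-18), or by 39.9%, and ranked 1623 of the 13158 genes tested by absolute change. Psat1, the second step, stood at 294.3, 297.3 and 301 CPM with the control hairpin, at 213.6, 215.2 and 217.1 with the Pfkp hairpin and at 299.2, 302.8 and 308.7 with the Lin41 hairpin. Only the sh-Pfkp libraries stood apart, with a log2 difference from control of -0.47 (SE 0.0226, edgeR adjusted p = 1.14e-17). Psph, which removes the phosphate in the last step, stood at 30.4, 31.7 and 29.8 CPM with the control hairpin, at 20.7, 24.2 and 23.9 with the Pfkp hairpin and at 30.4, 28 and 27.5 with the Lin41 hairpin. The sh-Pfkp libraries lay below all others (log2 fold change -0.42, SE 0.0646, edgeR adjusted p = 1.91e-06).

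**Figure D2:**
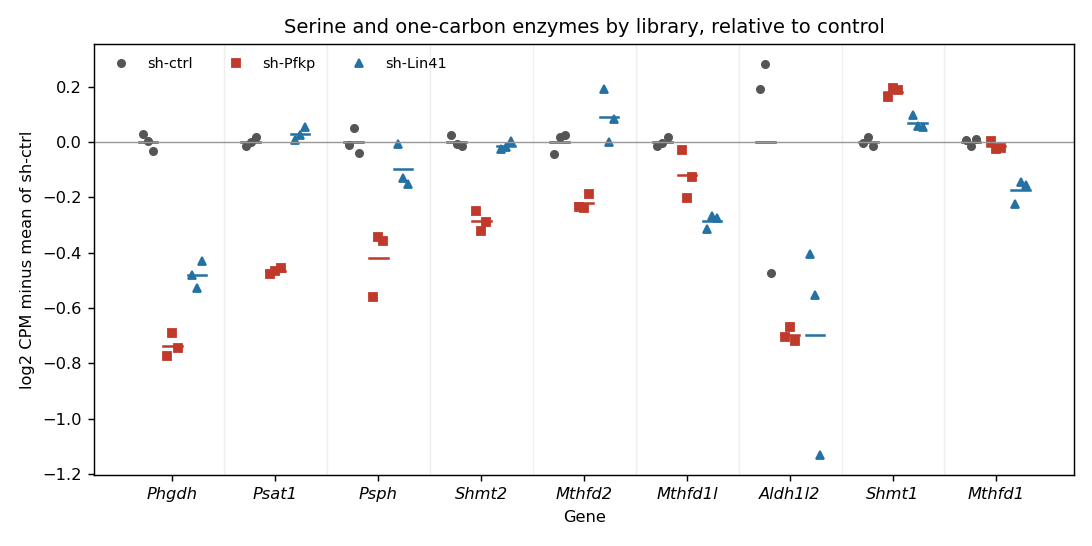
Level of each enzyme in each of the 9 libraries as log2 CPM minus the mean of the 3 sh-ctrl libraries, with a bar at each group's mean. The sh-Pfkp squares lie below 0 for the 3 serine synthesis genes and for Shmt2, Mthfd1l, Mthfd2 and Aldh1l2 and above 0 for Shmt1, while the sh-Lin41 triangles are below 0 in all 3 libraries for Phgdh, Psph, Mthfd1l, Aldh1l2 and Mthfd1.

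Among the mitochondrial enzymes Shmt2 stood at 242.9, 237.3 and 236.2 CPM with the control hairpin, at 200.6, 191.2 and 195.6 with the Pfkp hairpin and at 234.8, 235.5 and 239.2 with the Lin41 hairpin. It was lower only in the sh-Pfkp libraries, with a log2 difference of -0.29 (SE 0.0247, edgeR adjusted p = 1.56e-11). Mthfd2, the mitochondrial dehydrogenase and cyclohydrolase, stood at 51, 53.3 and 53.5 CPM with the control hairpin, at 44.6, 44.6 and 46.2 with the Pfkp hairpin and at 60.1, 52.5 and 55.7 with the Lin41 hairpin. It too fell in the Pfkp knockdown (log2 fold change -0.22, SE 0.0485, edgeR adjusted p = 0.000247), and its sh-Lin41 libraries overlapped control. Mthfd1l, the mitochondrial formate-releasing synthetase, stood at 114.8, 115.7 and 117.5 CPM with the control hairpin, at 113.6, 100.9 and 106.3 with the Pfkp hairpin and at 93.2, 96.4 and 95.7 with the Lin41 hairpin. Its fall in the Pfkp knockdown was small (log2 fold change -0.12, SE 0.0353, edgeR adjusted p = 0.00522). Without sh-Pfkp replicate 2, the lowest of them, it was not called (log2 fold change -0.07, edgeR adjusted p = 0.0937).

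Aldh1l2 rested on few reads, 170 counts over the 3 sh-ctrl libraries, 112 over sh-Pfkp and 122 over sh-Lin41. It stood at 3.72, 3.96 and 2.35 CPM with the control hairpin, at 2, 2.05 and 1.98 with the Pfkp hairpin and at 2.46, 2.22 and 1.49 with the Lin41 hairpin. Aldh1l2 fell in the Pfkp knockdown, with -0.72 on the log2 scale (SE 0.218; edgeR adjusted p, 0.00563), and in the Lin41 knockdown, with -0.68 (SE 0.215; edgeR adjusted p, 0.00824), where the libraries overlapped control. The second call was lost without sh-ctrl replicate 2 (-0.55, edgeR adjusted p = 0.0624) and without sh-Lin41 replicate 3 (-0.50, edgeR adjusted p = 0.0634).

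Neither of the cytosolic folate enzymes, Shmt1 and Mthfd1, fell in the Pfkp knockdown in the edgeR fit. Shmt1 stood at 135.5, 137.4 and 134.3 CPM with the control hairpin, at 151.8, 155.3 and 154.6 with the Pfkp hairpin and at 145.2, 141.2 and 140.9 with the Lin41 hairpin, so that the 3 groups were apart and sh-Pfkp was highest. It rose by 0.18 in log2 units (SE 0.0276, edgeR adjusted p = 1.41e-06) in the Pfkp knockdown. Mthfd1 stood at 387, 381.2 and 388 CPM with the control hairpin, at 386.1, 378.9 and 379.4 with the Pfkp hairpin and at 329.8, 348.4 and 346.1 with the Lin41 hairpin. In the Pfkp knockdown its log2 fold change was -0.02, with a 95% interval from -0.07 to 0.04 taken from the SE and 6 residual degrees of freedom (edgeR adjusted p = 0.575). It was called lower there when counts were scaled by library totals alone (-0.06, edgeR adjusted p = 0.0129), by the upper quartile (-0.05, edgeR adjusted p = 0.029) or on log2(FPKM + 1) (-0.11, limma adjusted p = 0.00466).

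In the Lin41 knockdown Phgdh, Mthfd1l and Mthfd1 were lower and the later steps of serine synthesis were not called. Of the 9 enzymes 4 fell, 1 rose and 4 were not called, beside 54.3% called among all genes tested, 27.3% lower and 26.9% higher. The median log2 fold change was -0.09 over the enzymes and 0.0043 over all genes tested. Phgdh fell by 0.48 on the log2 scale (SE 0.0318, edgeR adjusted p = 2.72e-14). Mthfd1l fell by 0.29 (SE 0.0357, edgeR adjusted p = 3.82e-08) and Mthfd1 by 0.18 on the log2 scale (SE 0.0218, edgeR adjusted p = 3.92e-08), and the sh-Lin41 libraries of both lay below every other library. Aldh1l2, given above, fell as well.

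Of the 4 enzymes not called in the Lin41 knockdown, Psat1 and Shmt2 had narrower intervals than Psph and Mthfd2. The intervals of Psph and Mthfd2 held changes as large as some called for other enzymes. Psat1 had a log2 fold change of 0.03 (95% interval -0.02 to 0.08) and Shmt2 of -0.01 (-0.07 to 0.04). For Psph it was -0.09 (-0.24 to 0.06) and for Mthfd2 0.09 (-0.02 to 0.21). Mthfd2 was called higher without sh-Lin41 replicate 2 (0.14, edgeR adjusted p = 0.019). The rise of Shmt1 was marginal, at 0.07 (SE 0.0277, edgeR adjusted p = 0.0324). It was not called by DESeq2 (0.07, adjusted p = 0.105) or by limma on log2(FPKM + 1) (0.02, adjusted p = 0.48). By edgeR the call was also lost on leaving out sh-ctrl replicate 1 (adjusted p = 0.0838). The same held for sh-ctrl replicate 3, with an edgeR adjusted p of 0.101. For sh-Lin41 replicate 1 the edgeR adjusted p was 0.12.

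The direct contrast of both knockdowns called 8 of the 9 enzymes. In sh-Pfkp 5 were lower and 3 higher than in sh-Lin41, and Aldh1l2 was not called (log2 fold change -0.04, 95% interval -0.61 to 0.52). Of all genes tested 55.1% were called in this contrast, 27.8% lower and 27.4% higher, with a median of -0.013 against -0.26 over the enzymes. The lower ones were the whole serine branch with mitochondrial Shmt2 and Mthfd2. Psat1 differed most (-0.50, SE 0.0223, edgeR adjusted p = 1.85e-18), then Psph (-0.32, SE 0.0639), Mthfd2 (-0.31, SE 0.047), Shmt2 (-0.27, SE 0.0243) and Phgdh (-0.26, SE 0.0338). Higher in sh-Pfkp were Mthfd1l (0.17, SE 0.0357), Mthfd1 (0.16, SE 0.0217) and Shmt1 (0.11, SE 0.027). Both comparisons with control share the same 3 sh-ctrl libraries, so their values stand side by side and were not correlated.

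In the authors' deposited tables the log2 ratio of mean FPKM had the same sign as the counts for each enzyme in both comparisons. For Phgdh the authors' deposited table gives -0.78 in the Pfkp and -0.48 in the Lin41 comparison. For Mthfd1 in the Pfkp comparison the authors' deposited table gives a log2 ratio of -0.11 with an FDR of 0.786. Shmt1 has an FDR of 0.142 in the Lin41 comparison of the authors' deposited tables. None of the 9 enzymes is among the 923 and 473 genes of the tables that the authors filtered on FDR and fold.

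The balance of mitochondrial to cytosolic serine hydroxymethyltransferase lay lowest in the 3 sh-Pfkp libraries, in a design too small for a p under 0.1. The ratio of Shmt2 to Shmt1 in FPKM was 1.80, 1.80 and 1.75 in the sh-ctrl libraries, 1.318, 1.305 and 1.32 in sh-Pfkp and 1.72, 1.70 and 1.78 in sh-Lin41. The sh-Pfkp values lay below all others, a difference in log2 ratio of -0.44 from sh-ctrl and of -0.40 from sh-Lin41. Each had an exact two-sided permutation p = 0.1, the smallest that 3 libraries against 3 allow (0.12 after adjustment over the 6 ratio comparisons made). Between sh-Lin41 and sh-ctrl the ratios overlapped (difference -0.04, exact permutation p = 0.2, adjusted 0.2). That overlap depended on FPKM: with CPM over 1 fixed length per gene the ratios were 1.78 to 1.85 in sh-ctrl and 1.67 to 1.75 in sh-Lin41, apart by -0.083 in log2 (exact permutation p = 0.1, adjusted 0.12). For the next steps, the sum of Mthfd1l and Mthfd2 over Mthfd1 was 0.436, 0.467 and 0.455 in sh-ctrl, 0.432, 0.408 and 0.428 in sh-Pfkp and 0.513, 0.468 and 0.482 in sh-Lin41. The sh-Lin41 values lay highest and the sh-Pfkp values lowest without overlap, by log2 differences from control of 0.11 and -0.10 (exact permutation p = 0.1 each, adjusted 0.12). With 1 fixed length per gene the sh-Lin41 and sh-ctrl values of this second ratio overlapped (difference 0.069, exact permutation p = 0.3, adjusted 0.3).

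**Figure D3:**
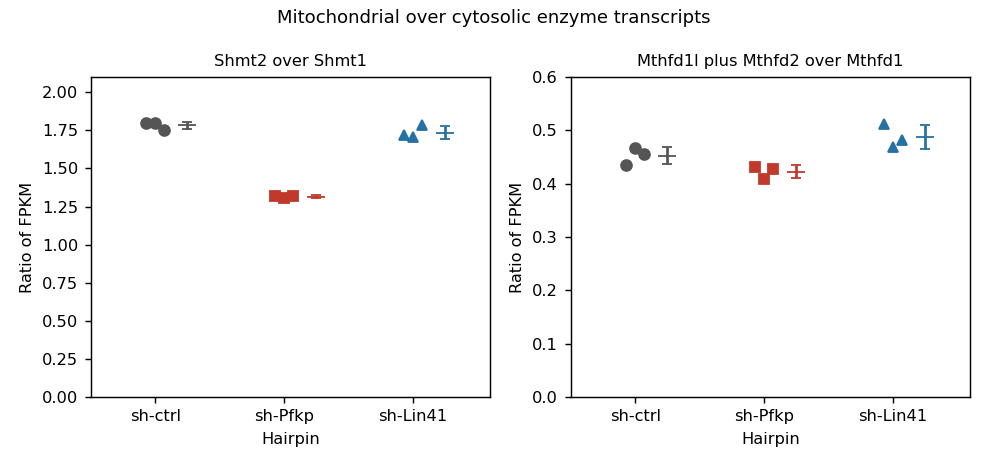
Ratio of FPKM of mitochondrial to cytosolic enzymes, 1 point per library, with the mean and SD of 3 libraries beside the points. Shmt2 over Shmt1 lies near 1.31 in sh-Pfkp and above 1.7 in the other libraries, and the second ratio lies between 0.408 and 0.513 in all 9.

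Around these enzymes, 66 other genes of serine, folate and one-carbon metabolism were listed and 60 were tested. In the Pfkp knockdown 18 rose, 19 fell and 23 were not called (median log2 fold change -0.01), and in the Lin41 knockdown 14 rose, 25 fell and 21 were not called (median -0.08). Both splits are nearer to those of all genes than the split of the 9 enzymes in the Pfkp knockdown, a difference that was not tested. The shares over all genes, to set beside each list below, were 28.3% higher and 28.3% lower in the Pfkp knockdown and 26.9% higher and 27.3% lower in the Lin41 knockdown. In the direct contrast they were 27.4% higher and 27.8% lower in sh-Pfkp. Named below are up to 3 called genes per list and comparison with the smallest adjusted p, all under 0.05 by edgeR.

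Transport of serine and glycine was mixed. Of 9 tested transporter genes 4 rose and 5 fell in the Pfkp knockdown, and 3 rose and 3 fell in the Lin41 knockdown. Slc38a2, a sodium-coupled neutral amino acid importer, rose from 216.8 ± 2 CPM in sh-ctrl to 382.1 ± 0.561 CPM in sh-Pfkp (log2 0.82, SE 0.0234) and 285.1 ± 9.14 CPM in sh-Lin41 (log2 0.40, SE 0.0239; SD, n = 3). Its relative Slc38a1 rose by 0.41 and 0.36 on the log2 scale. Slc1a5, a neutral amino acid exchanger, fell by 0.71 in the Pfkp and by 0.14 in the Lin41 knockdown, and Slc1a4, which carries serine and alanine, fell by 0.70 and 0.53. The mitochondrial serine carrier Sfxn1 was lower in sh-Pfkp than in sh-Lin41 (log2 -0.41).

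Of the 4 glycine cleavage genes 1 fell in the Pfkp knockdown (list median 0.0051) and 2 fell in the Lin41 knockdown (list median -0.10). Gldc, the decarboxylase of that system, had 140.8 ± 2.74 CPM in sh-ctrl, 115 ± 1.38 CPM in sh-Pfkp and 73.1 ± 0.596 CPM in sh-Lin41 (SD, n = 3). Gldc thus fell by 0.29 (SE 0.0295) and by 0.95 (SE 0.0313) on the log2 scale, further in the Lin41 knockdown (0.65 between the knockdowns, SE 0.0318, edgeR adjusted p = 1.34e-17). Gcsh, which carries the intermediate, was the other of the 4 genes called in the Lin41 knockdown (-0.19). The 7 other folate-interconverting enzymes tested had a median log2 fold change of 0.01 in the Pfkp knockdown and of -0.08 in the Lin41 knockdown. In folate uptake and retention 2 of 7 genes rose and 2 fell in each knockdown, with the receptor gene Folr1 up by 0.64 in the Pfkp knockdown and the polyglutamylating enzyme Fpgs down by 0.54 in the Lin41 knockdown. Folr2 (log2 1.67) and Slc19a1, the reduced folate carrier (-0.27), completed those named for the Pfkp knockdown. Folr2 rested on few reads, 12 counts over the sh-ctrl and 42 over the sh-Pfkp libraries. Slc19a1 overlapped control, at 14.6, 14.9 and 14.1 CPM in sh-Pfkp against 14.8, 16.2 and 21.3 CPM in sh-ctrl. Slc25a32, the mitochondrial folate carrier (0.37), and Ggh (0.41) completed those named for the Lin41 knockdown.

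The list of thymidylate and purine synthesis held 12 genes, only some of which use a one-carbon unit. In the Lin41 knockdown 9 of them fell and 2 rose (median -0.15). Tyms, the thymidylate synthase gene, which uses methylene-folate, rose by 0.39 on the log2 scale there and Tk1 rose by 0.18, both outside the naming rule and given after their values were seen. Among those that fell were the purine enzymes Gart (-0.33), Atic (-0.35) and Paics (-0.27), of which Gart and Atic use formyl-folate. In the Pfkp knockdown 4 rose and 4 fell (median -0.04), with Tyms up by 0.47, Adss up by 0.20 and Gart down by 0.15. Directly compared, 9 of the 12 were higher and 1 lower in sh-Pfkp than in sh-Lin41. In the methionine cycle and transsulfuration 5 of 12 tested genes rose and 5 fell in the Pfkp knockdown. Mat2a, which makes the methyl donor S-adenosylmethionine, rose from 322.5 ± 4.93 to 493.4 ± 5.93 CPM (SD, n = 3; log2 0.61, SE 0.0207), Amd1 rose by 0.31, and Cbs, which joins serine to homocysteine, fell by 0.77. In the Lin41 knockdown 2 rose and 6 fell, with Amd1 (-0.26), Ahcyl1 (-0.18) and the methionine synthase gene Mtr (-0.20) named by the rule.

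Among 9 tested genes that use or break down serine 3 rose and 2 fell in the Pfkp knockdown, and 5 rose and 2 fell in the Lin41 knockdown. Sptlc1, a subunit of the palmitoyltransferase that starts sphingolipid synthesis from serine, rose in both, by 0.51 and 0.52 on the log2 scale. Serinc1 rose by 0.41 and 0.20, and Serinc2 fell by 1.55 and 1.26 from 4.53 ± 0.598 CPM in sh-ctrl (SD, n = 3).

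**Figure D4:**
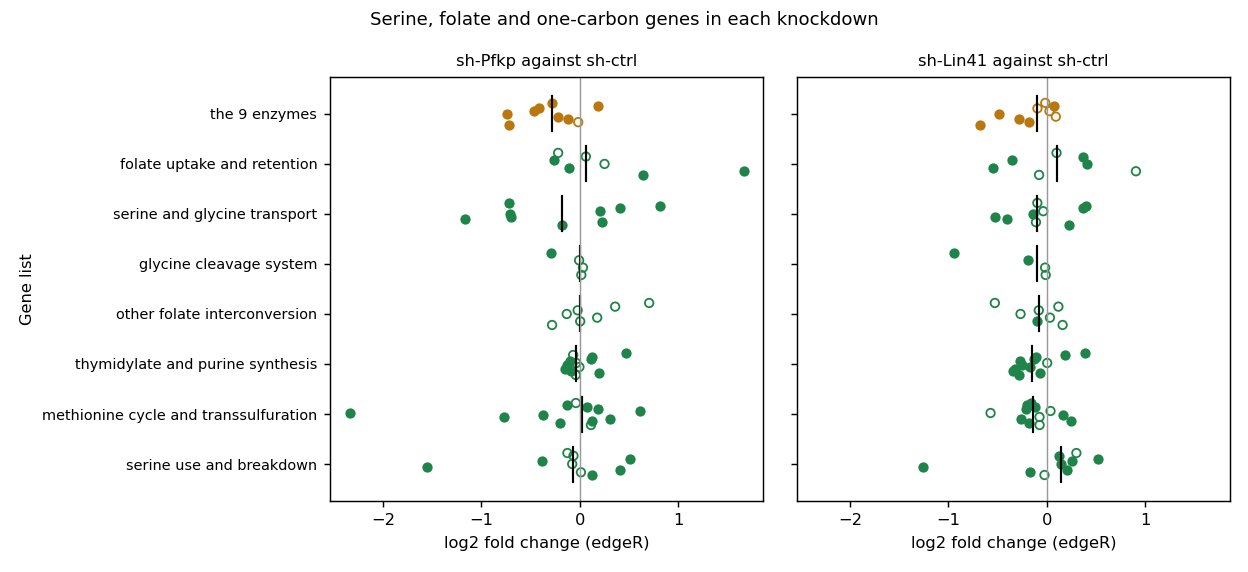
Log2 fold change by edgeR of the 9 enzymes and of the tested genes of 7 related lists in each knockdown against sh-ctrl, with filled points for adjusted p below 0.05, open points for other genes and a black line at each list's median. The 9 enzymes have the lowest of the 8 medians in the Pfkp knockdown (-0.29), and thymidylate and purine synthesis the lowest in the Lin41 knockdown (-0.15).

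Glycolytic genes upstream of the branch point to serine were lower in both knockdowns. Of 11 genes from hexokinase to 3-phosphoglycerate, Pfkp included, 10 fell and 1 rose in each comparison with control, at a median log2 fold change of -0.53 in the Pfkp and -0.44 in the Lin41 knockdown. Among all genes tested 28.3% fell in the Pfkp and 27.3% in the Lin41 knockdown. Pgk1, which makes 3-phosphoglycerate, fell by 0.61 (SE 0.0174) and 0.44 (SE 0.0173). Below the branch point 7 of 7 genes fell in the Pfkp knockdown and 6 of 7 in the Lin41 knockdown (medians -0.44 and -0.39). Phgdh was lower in both knockdowns, as these genes were, whereas Psat1 and Psph were called only in the first, and the direct contrast between the knockdowns differed for both of them as given above.

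The stress-response regulator Atf4 stood at 265.4, 270.9 and 264 CPM with the control hairpin, at 213.7, 214.3 and 212.5 with the Pfkp hairpin and at 314.2, 287.1 and 298 with the Lin41 hairpin. The groups did not overlap, with sh-Pfkp lowest and sh-Lin41 highest. Atf4 fell by 0.32 (SE 0.0268) in the Pfkp knockdown, rose by 0.17 (SE 0.0258) in the Lin41 knockdown and was 0.49 lower in the direct contrast. The libraries of Phgdh, Psat1, Psph, Shmt2 and Mthfd2 also lay lower in sh-Pfkp than in both other groups. Other enzymes did not: Mthfd1l and Mthfd1 lay lowest in sh-Lin41, Shmt1 lay highest in sh-Pfkp, and Aldh1l2 was not called between the knockdowns (log2 fold change -0.04). Phgdh also fell in the Lin41 knockdown (-0.48), where Atf4 rose. Of 21 response genes of ATF4, Atf4 itself included, 11 fell and 4 rose in the Pfkp knockdown (median -0.21) and 11 fell and 7 rose in the Lin41 knockdown (median -0.14). Chac1 fell by 1.64 and Ddit4 by 0.84 in the first, and Ddit4 by 1.2, Xpot by 0.38 and the asparagine synthetase gene Asns by 0.35 in the second. Of 7 candidate transcription factors of these enzymes, Atf4 included, 2 rose and 3 fell in the Pfkp knockdown, and 4 rose and 1 fell in the Lin41 knockdown. Mycn, another of them, rose by 0.92 (SE 0.0321) in the Pfkp and by 0.27 (SE 0.0338) in the Lin41 knockdown. Its partner Max rose by 0.19 and 0.13. Whether any of these factors acted on the 9 enzymes was not tested.

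Likeness of pattern was measured as the root mean square difference in log2 CPM, each gene centred on its own mean, over the 9 libraries and 8457 named genes with at least 10 CPM. Nearest to Phgdh were P4ha1, a collagen prolyl hydroxylase subunit (0.035), Khnyn (0.046), Rcn3 (0.052), the serine and alanine transporter gene Slc1a4 (0.054), Fam199x (0.055) and the sterol regulator Insig1 (0.059). Slc1a4 stood at 35.1, 38.3 and 37.1 CPM with the control hairpin, at 21.8, 23.3 and 22.6 with the Pfkp hairpin and at 25.2, 24.5 and 27.1 with the Lin41 hairpin. The groups stood in the same order as for Phgdh, which follows from the choice of Slc1a4 by likeness over these same libraries. The nearest of the other enzymes was Psph, at rank 419 (0.18). Nearest to Mthfd2 were Inpp4a (0.041), Pask (0.044), the succinate dehydrogenase subunit Sdhc (0.045), Cyb5r3 (0.045), Acp6 (0.046) and the amino acid transporter gene Slc7a5 (0.047). Its nearest fellow enzyme was mitochondrial Shmt2, at rank 118 (0.074), while Phgdh stood at rank 6687 (0.264). The 9 enzymes thus held several patterns across the 3 groups. Phgdh, Mthfd1l and Aldh1l2 were called lower and Shmt1 higher in both knockdowns, all but Phgdh with a call lost in some alternative runs. Psat1, Psph, Shmt2 and Mthfd2 were called only in the Pfkp knockdown, and Mthfd1 only in the Lin41 knockdown.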

How the data were processed

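RNA-seq was measured in 9 libraries, 3 per hairpin, grouped by the labels. The submitters' processing notes name RSEM, HISAT2, fastp 0.18.0, StringTie 1.3.1 and Bowtie2 2.2.8. For genome build, annotation and strand setting, the sources used here give nothing. The authors deposited whole-number read counts per gene, per the file headers, which may be rounded RSEM estimates. They also deposited FPKM per library and, per the file headers, a log2 ratio of group mean FPKM, a p-value and an FDR, whose test is not stated. The control columns were identical in both tables.

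Counts of all 9 libraries were fitted together with edgeR 4.0.16 in R 4.3.3 (filterByExpr, TMM scaling, quasi-likelihood test, Benjamini-Hochberg adjustment over 13158 genes, threshold 0.05). SE is the log2 fold change over the square root of F. Steps were tested on simulated data. Alternatives used DESeq2 1.42.0, limma 3.58.1 (voom, or trend on log2(FPKM + 1) and log2(FPKM + 0.1)), other scaling, filters and sample sets. The enzymes, gene lists and naming rule (all 9 enzymes, and up to 3 called genes per list with the smallest adjusted p) were chosen with earlier results of these data known. 1 gene that this rule names is not reported here.

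Replicate pairs of a group had a median chi-square of 0.661 to 0.763 over genes with at least 50 counts (0.455 for counting noise alone), so each library counted once. Whether the libraries stem from separate cultures is not in the labels, and p-values then cover only library-to-library spread, possibly technical. Libraries of sh-Pfkp deviated together with the sh-ctrl library of the same number (r = 0.108, 0.307 and 0.449 across genes). Same-numbered pairs with sh-Lin41 did not (r from -0.314 to 0.0344). Some libraries of unlike number went together as well, sh-Pfkp 1 with sh-ctrl 2 (0.143) and sh-Pfkp 2 with sh-Lin41 3 (0.402). Others went apart, down to -0.389 for sh-Pfkp 3 with sh-ctrl 2. These values therefore do not settle whether the numbers pair the libraries. The reported tests treated the libraries as unpaired, and a replicate block was used only as an alternative. Where 2 rows shared a listed symbol (2 symbols), the row with more counts was used.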

Additional observations from a re-analysis of the deposited data

How the results depend on the processing

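Of the 537 alternative values of the member log2 fold changes none changed sign in a called value, and those that changed a call are given beside their gene, apart from limma on log2(FPKM + 0.1), which changed the same calls as log2(FPKM + 1). In the Lin41 knockdown the count of enzymes called higher was 0 in place of 1 (Shmt1) with DESeq2, with limma on log2(FPKM + 1) and with limma on log2(FPKM + 0.1), and lay between 0 and 2 when 1 library was left out. The count called lower in the Pfkp knockdown lay within 1.5 times the reported 7 in every alternative run, as did every count over all genes against its own reported value. With limma on log2(FPKM + 1) the Pfkp knockdown had 2507 higher and 3802 lower calls over all genes, against 3721 and 3730 in the edgeR fit. In the alternative with a replicate block, the enzymes called in the Pfkp knockdown were again 7 lower and 1 higher, and no call on an enzyme changed in any comparison. The isozyme ratios moved by more than their spread when CPM over 1 fixed length per gene replaced FPKM, an alternative chosen after the data were seen: Shmt2 over Shmt1 differed from control by -0.47 in the Pfkp and -0.083 in the Lin41 knockdown, and the second ratio by -0.15 in the Pfkp knockdown, all in the same direction as with FPKM. Aldh1l2 was removed by the filter at a mean of 10 CPM, so that filter gives no value for it. The 3 libraries per group and the counts of Aldh1l2 limit the intervals given.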

Other observations

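The transcript length implied by the deposited counts and FPKM varied between libraries for Mthfd1. It was 3050 ± 52.8 bases in sh-ctrl, 3151 ± 7.82 bases in sh-Pfkp and 3131 ± 25.7 bases in sh-Lin41 (SD, n = 3), computed with the library's total count. The sh-ctrl and sh-Pfkp values were apart, and those of sh-Lin41 overlapped both. For Phgdh it was 1893 bases in each group. For Shmt1 it was 2311 ± 55.6, 2357 ± 74.7 and 2384 ± 47.8 bases, which overlapped. The values were not tested, and transcript-level counts were not analysed here.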
